A study of Homo sapiens with 4 samples.

Results

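The genes described here are 10 feedback inhibitors of the MAP kinase pathways: the MAP kinase phosphatases DUSP1, DUSP2, DUSP4, DUSP5, DUSP6 and DUSP10, the Sprouty genes SPRY2 and SPRY4, and the Sprouty-related genes SPRED1 and SPRED2. They were taken by gene name from a table of 28412 genes, and all 10 were found. The RNA-seq libraries came from cells labelled NB4, a human acute promyelocytic leukemia line, with either the control vector sh-NC (2 libraries) or the knockdown vector sh-LDB1 (2 libraries). The vectors were lentiviral and infected cells were selected with puromycin. The labels call the control libraries untreated and give them the genotype control. The study describes 3 shRNAs against human LDB1, and which of them was sequenced is not given in the sources used here. The LIM domain-binding protein LDB1 is an adaptor that forms complexes with LMO2 and with DNA-binding factors such as GATA1 and TAL1. The comparison asked which of these genes change in level when LDB1 is reduced.

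MAP kinase cascades carry signals from growth factors, cytokines and stress to the nucleus. ERK is activated through RAS, RAF and MEK, and JNK and p38 through parallel kinases. Cells limit these signals with proteins whose genes the signals themselves switch on. The DUSP phosphatases remove phosphate from both the threonine and the tyrosine of an activated MAP kinase. Sprouty and SPRED proteins act higher up, between the receptor and RAF. In blood cells, ERK signalling takes part in the choice between proliferation and differentiation, and several of these feedback genes are used as readouts of its activity.

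Stretches upstream of the transcription start are shown for 3 genes: DUSP1, which had the highest level of the set, SPRED1, the only gene of the set that fell, and SPRED2, whose stretch holds a match to an E-box of the kind bound by TAL1, a partner of LMO2 and LDB1. The sequences are from RefSeq on GRCh38.p14, written 5′ to 3′ on the strand of the gene, and capitals mark the motif matches. The DUSP1 stretch is the 250 bases before the start (chr5:172771196-172771445, minus strand) and holds a cAMP response element, TGACGTCA, 125 bases before the start. The SPRED1 stretch is also 250 bases (chr15:38252586-38252835, plus strand) and holds no match. The SPRED2 stretch is 200 bases (chr2:65432650-65432849, minus strand), with CAGATG beginning 246 bases before the start.
DUSP1: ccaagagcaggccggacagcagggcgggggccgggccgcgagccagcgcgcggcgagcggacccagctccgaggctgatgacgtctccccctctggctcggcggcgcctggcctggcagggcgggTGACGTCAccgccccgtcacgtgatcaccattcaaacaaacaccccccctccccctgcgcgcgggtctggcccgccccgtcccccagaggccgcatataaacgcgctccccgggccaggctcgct
SPRED1: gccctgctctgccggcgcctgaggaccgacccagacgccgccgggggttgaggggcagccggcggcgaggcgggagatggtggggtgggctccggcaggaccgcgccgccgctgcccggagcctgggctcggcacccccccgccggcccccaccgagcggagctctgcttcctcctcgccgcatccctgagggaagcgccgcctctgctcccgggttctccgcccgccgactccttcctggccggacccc
SPRED2: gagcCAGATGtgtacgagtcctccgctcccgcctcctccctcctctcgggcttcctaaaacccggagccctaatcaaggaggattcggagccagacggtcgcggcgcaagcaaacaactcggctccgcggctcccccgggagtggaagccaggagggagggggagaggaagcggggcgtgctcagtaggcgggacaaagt
Promoter windows were found for 8 of the 10 genes, with DUSP4 and DUSP5 unmatched. Each window, 250 bases before to 50 bases after the start, was searched on both strands for 6 motifs. The cAMP response element was present in 1 of the 8 windows (DUSP1) and in 1.85% of all 35116 promoter windows. CAGATG was present in 1 of the 8 (SPRED2) and in 14.7% of all windows. None of the 8 held the AP-1 motif TGANTCA (7.71% of all windows), the ETS motif CCGGAAGT (4.14%), the GATA motif AGATAA (10.3%) or a CArG box (1.29%). None of the 6 motifs shares its letters with another at these matches, and a match is a description of the letters only. The G and C content of the upstream bases was 74.4% for DUSP1, 78.4% for SPRED1 and 58.8% for the 250 bases of SPRED2, beside a median of 58% over all promoters.

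The deposited levels are FPKM, fragment counts divided by gene length and by a size for each library. They can thus be compared between genes per length. Reads recovered from them came to between 14801003 and 17199976 per library. The library sizes behind the FPKM were 0.941 and 0.936 times the recovered reads with sh-NC. With sh-LDB1 they were 1.016 and 1.022 times those reads. Each ratio of the groups carries this scaling beside depth. LDB1 itself was 135.1 and 120.1 FPKM with sh-NC and 10.2 and 9.47 FPKM with sh-LDB1, 7.73% of the control mean (limma log2 fold change -3.56, SE 0.0765, adjusted p = 6.93e-05). The labelled line was checked against markers. Of 10 granulocyte and promyelocyte markers, 8 had a value, and their summed level was 12.7 and 11.7 FPKM with sh-NC and 46.3 and 42.8 FPKM with sh-LDB1. Of these, ELANE, a defining promyelocyte protease, was at 0 in 3 of the 4 libraries and at 0.182 FPKM with sh-LDB1 replicate 1. MPO and CTSG were not analysed here. The 12 erythroid markers, with none at 0 in any library, summed to 4154 and 4329 FPKM with sh-NC. With sh-LDB1 they summed to 388.1 and 351.7 FPKM. The erythroid and granulocyte sums go against a promyelocytic identity, and the libraries are called here by their label. Lymphocyte markers (4 of 5 with a value) summed to 24.3 and 21.8 FPKM with sh-NC and to 47.2 and 50.4 FPKM with sh-LDB1, most of it CD3D. Monocyte markers (4 of 5), each under 1 FPKM in every library, summed to 0.365 and 0.264 FPKM with sh-NC and to 0.833 and 0.759 FPKM with sh-LDB1. Megakaryocyte markers (4 of 6) summed to 3.13 and 2.86 against 3.91 and 3.42 FPKM. The sum of the erythroid markers was thus lower, and the sums of the other 4 marker lists were higher, in both sh-LDB1 libraries. Single markers did not all follow their sums. CEBPE, a granulocyte marker, was at 1.55 and 1.27 FPKM with sh-NC and at 0.924 and 0.340 FPKM with sh-LDB1 (limma adjusted p = 0.0810). CD68 was at 0.141 and 0.0620 FPKM with sh-NC (5 and 2 reads) and at 0 with sh-LDB1. CEBPE and CD68 were named after their values were seen. ITGA2B and GP1BA, the tested megakaryocyte markers, had limma adjusted p-values of 0.351 and 0.365. The shifts in the sums go with each change described next, and their part in it was not tested. In bulk RNA, fewer cells of a type and less RNA per cell cannot be told apart.

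Of the 10 feedback genes, DUSP1, DUSP5 and SPRY4 rose more than 2-fold in sh-LDB1, SPRY2, SPRED2 and DUSP10 rose by less on the scale of the test, and SPRED1 fell. DUSP2, DUSP4 and DUSP6 were below the filter of 1 FPKM in the mean over the libraries and were not tested. Levels were tested as log2(FPKM + 1) over 13300 genes, and a call needed both an adjusted p below 0.05 and a change of more than 2-fold in either direction. By this rule, in limma, 3 of the 7 tested genes were called higher, beside 9.5% of all tested genes, and 0 were called lower, beside 10.3%. By the adjusted p alone, 6 of the 7 were higher, beside 29.9% of all tested genes, and 1 was lower, beside 37.4%. By the unadjusted p under 0.05 the numbers were also 6 and 1. The same 6 genes had both sh-LDB1 libraries above both sh-NC libraries, as did 38.3% of all tested genes, and SPRED1 had both below, as did 46.3%. Of the 7, DUSP10 averaged over 1 FPKM only with sh-LDB1 and SPRED1 only with sh-NC, so each passed the filter through the group in which it was higher, and the counts are a description of the set and no support for its direction. Nothing in the sources says that the 2 libraries of a group came from separate cultures, so the p-values measure the spread between these libraries, which may be technical.

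**Figure D1:**
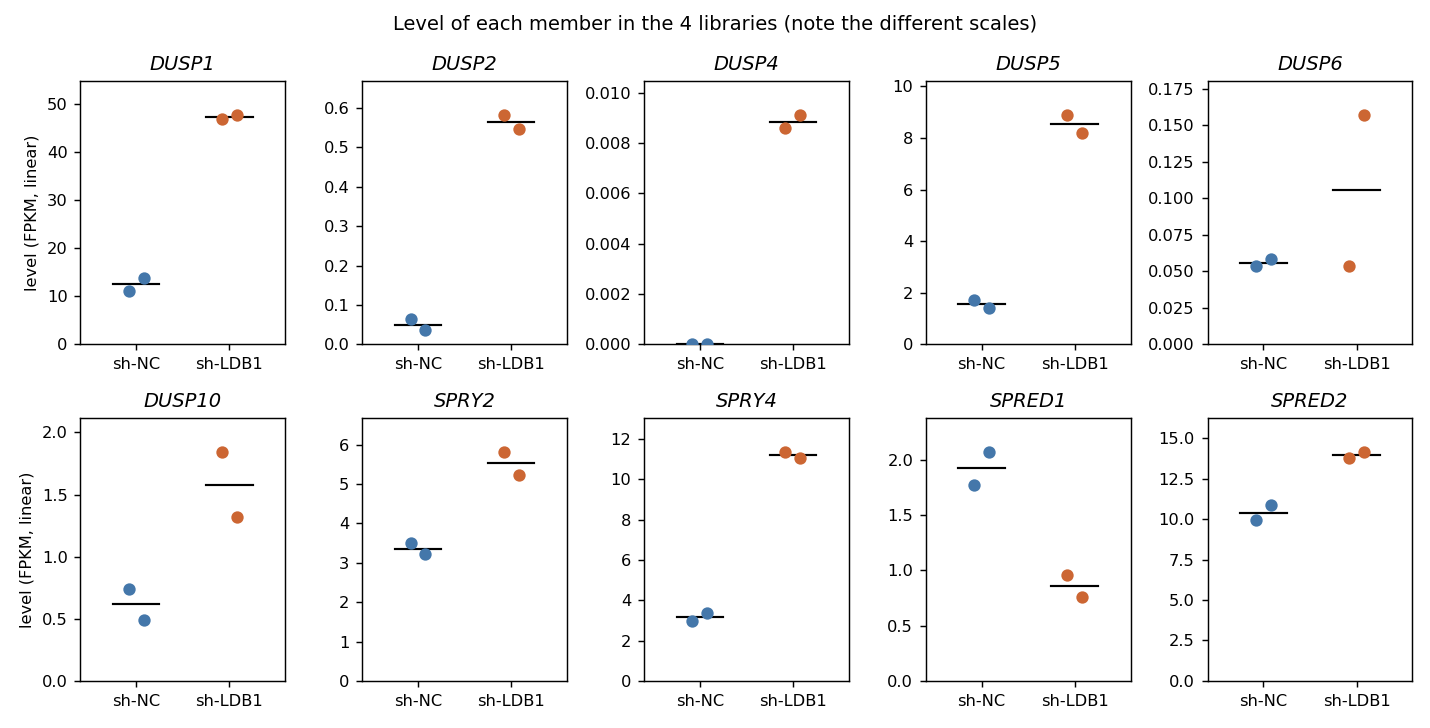
Level of each of the 10 genes in FPKM on a linear axis that starts at 0 and differs between panels, with 1 point per library (blue sh-NC, orange sh-LDB1) and a line at the mean of the 2 libraries. The groups do not overlap for DUSP1 (11.02 and 13.9 against 47.0 and 47.7 FPKM), do overlap for DUSP6, and SPRED1 is the only gene lower in sh-LDB1.

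Of the nuclear, signal-inducible phosphatases DUSP1, DUSP2, DUSP4 and DUSP5, only DUSP1 and DUSP5 were tested, and both rose. DUSP1, which acts on p38, JNK and ERK and is an immediate early gene, lies at chr5:172768096-172771195 on the minus strand of GRCh38. Its level was 11.02 and 13.9 FPKM with sh-NC (360 and 414 reads) and 47.0 and 47.7 FPKM with sh-LDB1 (1520 and 1458 reads). The lower sh-LDB1 library was 3.38 times the higher sh-NC library. The means were 12.5 ± 2.04 and 47.4 ± 0.518 FPKM (SD, n = 2 each), a ratio of 3.80, and the log2 fold change was 1.85 (SE 0.112, adjusted p = 0.000304). DUSP1 was called under all 13 alternatives, with log2 fold changes from 1.70 to 2.02.

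DUSP5, a nuclear phosphatase selective for ERK (chr10:110497907-110511533, plus strand), had the largest log2 fold change on log2(FPKM + 1) among the tested genes of the set. It was at 1.70 and 1.40 FPKM with sh-NC (72 and 54 reads) and at 8.88 and 8.21 FPKM with sh-LDB1 (372 and 325 reads). The groups were far apart, with a ratio between libraries of at least 4.83. The means of 1.55 ± 0.213 and 8.55 ± 0.471 FPKM (SD, n = 2 each) gave a ratio of 5.51, and the fitted log2 fold change was 1.91 (SE 0.0925, adjusted p = 0.000185). It too was called under all 13 alternatives, from 1.82 to 2.46 on the log2 scale.

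DUSP2, a nuclear phosphatase of activated white blood cells (chr2:96143169-96145440, minus strand), was low in every library. It was at 0.0640 and 0.0351 FPKM with sh-NC and at 0.582 and 0.547 FPKM with sh-LDB1. This rests on 2 and 1 reads against 18 and 16 reads. The groups do not overlap. The ratio of the summed reads, scaled as in the FPKM, was 11.3, with an exact 95% interval of 3.54 to 57.3. This interval covers counting error only. With no filter on low values, DUSP2 had a limma log2 fold change of 0.58 on the log2(FPKM + 1) scale (SE 0.0637, adjusted p = 0.00787) and was not called. In the same limma fit, DUSP4 and DUSP6 had adjusted p-values of 0.746 and 0.477.

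DUSP4, a close relative of DUSP1 on chromosome 8, was at 0 in both sh-NC libraries. In sh-LDB1 it was at 0.00860 and 0.00911 FPKM, which is 1 read in each library. Both groups are at or under the 3 reads that a count of 0 allows, so no fold is given, and a difference was not detectable at this depth.

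DUSP6, the cytoplasmic phosphatase of ERK and the usual readout of ERK output (chr12:89347235-89352501, minus strand), was hardly detected. It was at 0.0534 and 0.0586 FPKM with sh-NC (4 and 4 reads) and at 0.0539 and 0.157 FPKM with sh-LDB1 (4 and 11 reads). The groups overlap, and sh-LDB1 replicate 2 alone stands above the rest. The ratio of summed reads, scaled as in the FPKM, was 1.86 with an exact 95% interval of 0.741 to 5.07. A difference was thus not detectable at this depth. The reads of DUSP6 were recovered at a fitted length of 4632 bases, beside 3859 annotated. The exons of DUSP6 share 1105 bases, 28.6% of their length, with a lncRNA on the opposite strand. The use of strand in counting was not given in the sources used here.

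DUSP10, which prefers JNK and p38 to ERK (chr1:221701424-221742089, minus strand), was at 0.742 and 0.489 FPKM with sh-NC (35 and 21 reads) and at 1.84 and 1.32 FPKM with sh-LDB1 (86 and 58 reads). Replicate 2 was the lower library of each group, and the groups do not overlap. The means were 0.615 ± 0.179 and 1.58 ± 0.372 FPKM (SD, n = 2 each), a ratio of 2.57, while the log2 fold change on the scale with 1 added was 0.67 (SE 0.182, adjusted p = 0.0284) and was not called. DUSP10 passed the filter only through its sh-LDB1 level. The adjusted p was 0.0929 without sh-NC replicate 2, 0.0511 without sh-LDB1 replicate 2 and 0.0639 with no filter, and the gene fell under the filter without sh-LDB1 replicate 1. With 0.1 added in place of 1, the log2 fold change was 1.24 and the gene was called.

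The Sprouty genes both rose, by different amounts. They encode inducible inhibitors that act between receptor tyrosine kinases and the RAS to ERK cascade. SPRY4 (chr5:142310427-142326455, minus strand) was at 2.99 and 3.38 FPKM with sh-NC (318 and 327 reads) and at 11.3 and 11.04 FPKM with sh-LDB1 (1193 and 1097 reads). Replicates lay close together and the lower sh-LDB1 library was 3.27 times the higher sh-NC library. From means of 3.19 ± 0.272 and 11.2 ± 0.212 FPKM (SD, n = 2 each) the ratio was 3.51, with a log2 fold change of 1.54 (SE 0.0711, adjusted p = 0.000169). SPRY4 was called under all 13 alternatives, from 1.48 to 1.82.

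SPRY2 (chr13:80335976-80341126, minus strand) was at 3.50 and 3.21 FPKM with sh-NC (172 and 144 reads) and at 5.81 and 5.24 FPKM with sh-LDB1 (283 and 241 reads). Both sh-LDB1 libraries were higher. The means, 3.36 ± 0.201 and 5.53 ± 0.404 FPKM (SD, n = 2 each), gave a ratio of 1.65, and the log2 fold change of 0.58 (SE 0.0812, adjusted p = 0.00343) did not reach the fold threshold. In sh-NC the levels of SPRY2 and SPRY4 overlapped, whereas in sh-LDB1 SPRY4 was above SPRY2 in every library.

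The SPRED genes moved in opposite directions. SPRED proteins sit at the membrane and bring neurofibromin, which switches RAS off, to it, and loss of SPRED1 causes Legius syndrome. SPRED1 (chr15:38252836-38357249, plus strand) was at 1.77 and 2.07 FPKM with sh-NC (237 and 252 reads) and at 0.960 and 0.760 FPKM with sh-LDB1 (127 and 95 reads). Both sh-LDB1 libraries were lower, and the sh-LDB1 mean of 0.860 ± 0.141 FPKM was 44.8% of the sh-NC mean of 1.92 ± 0.209 FPKM (SD, n = 2 each). The log2 fold change on the scale with 1 added was -0.65 (SE 0.136, adjusted p = 0.0125) and was not called. With 0.1 added it was -1.08, and by voom on the recovered reads -1.15 (adjusted p = 2.46e-05), and it was then called lower. Without sh-NC replicate 2 the adjusted p was 0.0610 and without sh-LDB1 replicate 2 it was 0.0599.

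SPRED2 (chr2:65310851-65432637, minus strand), whose promoter window holds the CAGATG match printed above, was at 9.95 and 10.8 FPKM with sh-NC (830 and 824 reads) and at 13.8 and 14.1 FPKM with sh-LDB1 (1139 and 1103 reads). The libraries of each group were close together and the groups do not overlap. The means of 10.4 ± 0.629 and 14.0 ± 0.247 FPKM (SD, n = 2 each) gave a ratio of 1.34, and the log2 fold change was 0.39 (SE 0.0604, adjusted p = 0.00463), under the fold threshold.

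**Figure D2:**
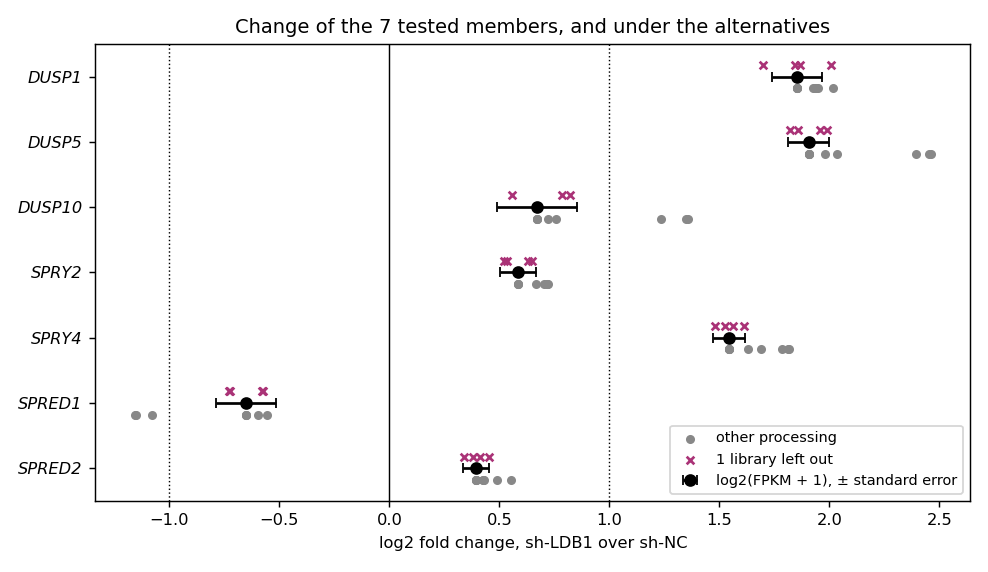
Log2 fold change of the 7 tested genes, sh-LDB1 over sh-NC, with the value on log2(FPKM + 1) and its standard error in black, values with 1 library left out as crosses and other processing as grey points. Dotted lines mark fold changes of 2 and 0.5. DUSP1, DUSP5 and SPRY4 lie beyond 2 in every alternative, and DUSP10 and SPRED1 lie beyond the lines only where the added constant is small or recovered reads are used.

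The order of levels within the set was compared between the groups. In sh-NC, DUSP1 was highest, followed by SPRED2, SPRY2, SPRY4, SPRED1, DUSP5, DUSP10, DUSP6, DUSP2 and DUSP4. The libraries of SPRY2 and SPRY4 overlapped, as did those of DUSP6 and DUSP2, and no other neighbours did. In sh-LDB1 the order was DUSP1, SPRED2, SPRY4, DUSP5, SPRY2, DUSP10, SPRED1, DUSP2, DUSP6 and DUSP4, with no overlap between neighbours. Overlap here is of the FPKM alone and leaves out counting error. The places of DUSP2, DUSP4 and DUSP6 rest on at most 18 reads per library. DUSP1 and SPRED2 thus held the highest levels in both groups, while DUSP5 moved above SPRY2 and SPRED1.

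The rest of the pathway was read from 8 lists with 92 genes, of which 88 had a value and 73 were tested. Among them 10 were called higher (13.7%, beside 9.5% of all tested genes) and 4 lower (5.48%, beside 10.3%). By the adjusted p alone 29 were higher (39.7%, beside 29.9%) and 26 lower (35.6%, beside 37.4%). Counts of single lists are read against the same background shares. Their median log2 fold change was 0.05. The median over all genes was -0.08. The same comparison and the same 4 libraries underlie each count, so the lists are not independent of each other.

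The 4 other typical MAP kinase phosphatases were all tested, with 2 called higher, 0 lower and a median log2 fold change of 0.81. DUSP8, a phosphatase of JNK and p38, was at 1.44 ± 0.203 FPKM with sh-NC and 6.40 ± 0.0463 FPKM with sh-LDB1 (log2 fold change 1.61, adjusted p = 0.000257). DUSP9, a cytoplasmic phosphatase of ERK, was at 2.09 ± 0.4996 and 6.69 ± 0.4004 FPKM (log2 fold change 1.32, adjusted p = 0.00125). DUSP8 and DUSP9 had a mean under 5 FPKM and were chosen for naming after their values were seen. DUSP16, a phosphatase of JNK, had a log2 fold change of 0.30 (adjusted p = 0.0512) and DUSP7, a cytoplasmic phosphatase of ERK, one of -0.06 (adjusted p = 0.566), so neither passed the test.

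Among 7 tested atypical dual-specificity phosphatases, 1 was called higher, 0 lower, and the median log2 fold change was 0.06. The called gene was DUSP3, a small phosphatase of ERK and JNK, at 9.15 ± 0.3999 FPKM with sh-NC and 39.4 ± 0.701 FPKM with sh-LDB1 (log2 fold change 1.99, SE 0.0512, adjusted p = 8.04e-05). None of the 3 other Sprouty and SPRED genes passed the filter. SPRED3 was at 0.345 ± 0.0631 FPKM with sh-NC and 0.997 ± 0.0248 FPKM with sh-LDB1, with no overlap between the groups (with no filter, log2 fold change 0.57, adjusted p = 0.0271, not called). SPRY3 was at 0.156 ± 0.0608 and 0.330 ± 0.104 FPKM, also with no overlap (with no filter, adjusted p = 0.187). SPRED3 and SPRY3 were named after their values were seen. SPRY1, whose groups overlap, was at 0.624 ± 0.110 FPKM with sh-NC and 0.517 ± 0.0937 FPKM with sh-LDB1.

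In the RAS to ERK cascade, 18 genes were tested, of which 1 was called higher and 0 lower, with 9 higher and 4 lower by the adjusted p alone. MAPK3, which encodes an ERK kinase, was at 8.91 ± 0.286 and 13.2 ± 0.939 FPKM (log2 fold change 0.52, adjusted p = 0.0028). The called gene was RRAS, a RAS-related GTPase, at 6.49 ± 0.914 FPKM with sh-NC and 23.8 ± 3.38 FPKM with sh-LDB1 (log2 fold change 1.73, adjusted p = 0.00058). Of 9 other restraints of RAS and ERK, 0 were called higher and 1 lower, with 3 in each direction by the adjusted p alone. The gene called lower was PEBP1, which encodes the RAF kinase inhibitor protein. It was at 117.6 and 117.3 FPKM with sh-NC and at 24.0 and 24.2 FPKM with sh-LDB1 (log2 fold change -2.24, SE 0.0376, adjusted p = 6.77e-05). PEBP1 thus fell in the libraries in which DUSP1, DUSP5 and SPRY4 rose, so the restraints of the cascade did not move in 1 direction.

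The JNK and p38 cascade had 18 tested genes, with 2 called higher, 2 lower and a median log2 fold change of -0.30. MAPK13, which encodes the delta form of p38, was at 1.08 ± 0.0691 and 15.6 ± 0.0862 FPKM (log2 fold change 2.997, adjusted p = 6.93e-05). MAP3K2, an upstream kinase, had a log2 fold change of 1.78 (adjusted p = 0.000116). MAPK12, the gamma form of p38, had one of -1.37 (adjusted p = 0.000187), and MAPK9, a JNK kinase, one of -1.29 (adjusted p = 0.000287). MAPK9 had a mean under 5 FPKM and was chosen for naming after its values were seen. Among 8 tested kinases that MAP kinases activate, 1 was called higher and 0 lower, and 4 passed the adjusted p in each direction. It was MKNK2, the kinase of the cap-binding factor EIF4E, with a log2 fold change of 1.55 (adjusted p = 0.000111).

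Other genes induced by ERK signalling did not move together. Of 14 listed, 9 were tested, with 3 called higher, 1 lower and a median log2 fold change of -0.30, and by the adjusted p alone 3 were higher and 5 lower. IER3, an immediate early survival gene, rose from 10.7 ± 1.92 to 115 ± 6.38 FPKM (log2 fold change 3.32, adjusted p = 0.000121). FOS and ETV1 both had a log2 fold change of 1.16 (adjusted p = 0.000482 and 0.00148), with means under 5 FPKM, and were chosen for naming after their values were seen. ETV1 averaged 0.924 FPKM with sh-NC and 3.29 FPKM with sh-LDB1, so it passed the filter only through sh-LDB1. CCND1, which encodes the G1 cyclin D1, fell from 20.1 ± 1.02 to 6.64 ± 0.296 FPKM (log2 fold change -1.47, adjusted p = 0.00015). EGR1, an immediate early transcription factor, was at 19.1 ± 0.946 and 10.1 ± 1.01 FPKM (log2 fold change -0.86, adjusted p = 0.0011), and ETV5, an ETS factor, had a log2 fold change of -0.62 (adjusted p = 0.00134).

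**Figure D3:**
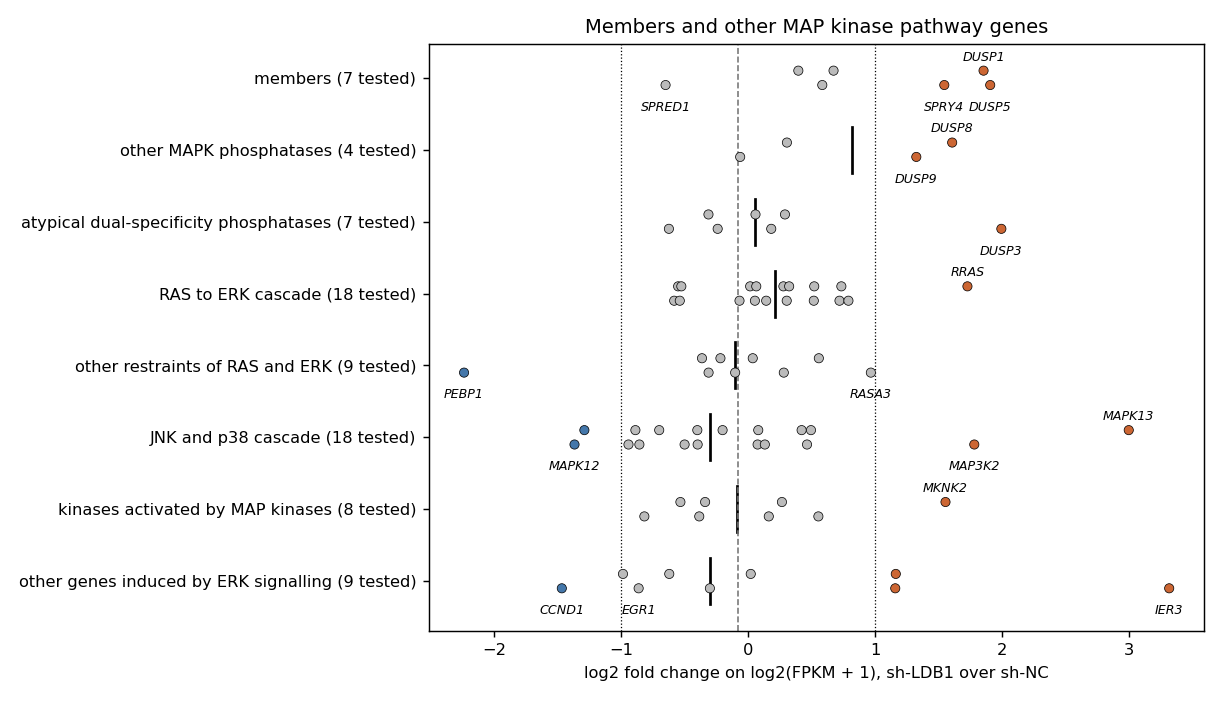
Log2 fold change of every tested gene of the set and of 7 other pathway lists (the 3 other Sprouty and SPRED genes were not tested), with 1 point per gene, orange for called higher, blue for called lower and grey for neither. Black bars are the medians of the other lists, the dashed line is the median of all genes, -0.08, and dotted lines mark fold changes of 2 and 0.5. The 7 feedback genes range from SPRED1 at -0.65 to DUSP5 at 1.91, while the JNK and p38 list spans from -1.37 to 2.997.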

How the data were processed

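Total RNA of cells labelled NB4 was made into Illumina TruSeq libraries, with 2 libraries per group. Reads were filtered and mapped with HISAT2 2.0.5 to hg38, per the submitters' processing notes. The authors deposited 1 table of FPKM with 1 column per library, replicates not pooled, and 0 columns belonged to no sample. The counting tool, annotation and use of strand were not given in the sources used here.

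Genes that averaged 1 FPKM or more over the 4 libraries were tested as log2(FPKM + 1) with limma 3.58.1 (eBayes with trend, R 4.3.3), sh-LDB1 against sh-NC, with Benjamini-Hochberg adjustment over 13300 genes. Adding 1 shrinks the fold changes of low genes. Calls needed an adjusted p below 0.05 with a fold change over 2 or under 0.5. Tables and promoter searches were made with Python 3.11.15, numpy 2.4.6, pandas 2.3.3 and scipy 1.17.1.

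Low FPKM values step in units of 1 read, so reads were recovered from them at a fitted gene length, checked against GENCODE release 44. Whole reads (within 0.002) came out for 99% of genes, and 85.6% of the fitted lengths were within 10% of the annotated ones. The lengths were chosen to give whole reads, so the 99% is no separate check. For genes of 1 transcript, 84.2% of values under 200 reads were whole at the annotated length itself. Totals rest on the fitted lengths. The exact 95% intervals and the floor of 3 reads cover counting error only. The limma fit was tested on simulated log-normal data.

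The genes and lists were chosen with earlier results of these data known. Named genes were the 10 feedback genes, LDB1, MAPK3, DUSP7, DUSP16, SPRY1, ETV5 and EGR1, up to 3 markers per list plus MPO and ELANE, and up to 3 called genes per pathway list and direction with a mean of at least 5 FPKM. A further gene named by this rule is not reported here. Likeness to DUSP6 is not given, since DUSP6 was not tested.

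Alternatives were other pseudocounts, filters, scalings, models, a replicate block and leaving out each library. The voom fit on recovered reads kept the library scaling of the deposited FPKM. The correlation of deviations between same-numbered libraries was 0.0196, so the numbers were not taken to pair them.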

Additional observations from a re-analysis of the deposited data

How the results depend on the processing

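DUSP1, DUSP5 and SPRY4 were called higher under all 13 alternatives, and SPRY2 and SPRED2 were called under none. All tested feedback genes and LDB1 (log2 fold change -3.69 to -3.40) kept their direction wherever they were tested. Feedback genes called lower numbered 1 (SPRED1) in place of 0 with 0.1 or 0.01 added or by voom. Without the filter DUSP10 kept its log2 fold change of 0.67 but had an adjusted p of 0.0639.

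Over all genes, 1264 were called higher and 1371 lower. A filter of 5 FPKM gave 710 higher, from fewer genes tested, and treat against a fold change of 2 gave 568 higher and 581 lower. Pathway genes called higher fell from 10 to 6 with the filter of 5 FPKM, and those called lower rose from 4 to 8 with 0.1 or 0.01 added and by voom, where low genes are less compressed. Scaling to TPM moved the median log2 fold change of all genes from -0.08 to 0.07, and the share of lower calls from 52% to 37.9% (43.6% by median of ratios). With the replicate block, 1274 genes were called higher and 1386 lower, with 3 feedback genes higher and 0 lower, and no call of a feedback gene changed. With 1 library left out, the counts over all genes ranged from 1190 to 1360 higher and from 1336 to 1450 lower. Depth limits DUSP2, DUSP4 and DUSP6, which rest on at most 18 reads per library.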
